A study of Mus musculus with 14 samples.

Results

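The genes described here are 8 basic leucine zipper (bZIP) transcription factors: the AP-1 genes Fosb, Fos, Jun, Junb, Jund and Fosl2, together with Atf3 and Maff. They were chosen by name, with earlier results of these data known. All 8 were found among the 10210 genes listed for natural killer (NK) cells and among the 8471 of these that passed the low-count filter. They were also among the 12235 genes listed for sCAFs, a subset of cancer-associated fibroblasts. NK cells are innate lymphocytes that kill stressed and transformed cells. Counts of 3' end RNA sequencing were available for NK cells of 3 spleens of healthy BALB/c mice, of 4 spleens of BALB/c mice bearing a 4T1-GFP tumour, and of 4 such tumours, and for 3 sCAF libraries of 4T1-GFP tumours. The line 4T1 comes from a mammary carcinoma of a BALB/c mouse, here carrying green fluorescent protein, and 100000 cells were injected into a mammary fat pad of females 8 weeks old. The healthy mice are given as 8 weeks old, and no tumour is named for them. The spleens served as controls for the state of NK cells in the tumour, and the sCAFs were sequenced for genes that could bear on NK cell migration and retention.

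Handling differed between the tissues. Tumours were minced and kept for 20 min at 37 °C in 3 mg/ml collagenase A and 70 units/ml DNase, while spleens were crushed and freed of red cells for 5 min on ice. Warm digestion and the tumour itself can therefore not be told apart in any comparison of tumour with spleen. The NK sort kept cells with CD45 and NKp46 and without CD3, CD14, CD31, EPCAM or GFP, and the sCAF sort kept cells without any of CD45, PDPN, CD31, EPCAM or GFP. Labels speak of independent replicates without saying whether these were separate animals, so that p-values measure the spread between the libraries, part of which may be technical.

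AP-1 is a dimer of a Jun protein with a Fos protein or another bZIP protein, and it binds DNA through the basic region of both partners. Fos, Fosb, Jun and Junb are immediate early genes, which are transcribed within minutes of receptor, growth factor or stress signals from factors already present in the cell, and whose mRNAs decay fast. Their induction by MAP kinases is a normal step of lymphocyte activation, and it is also a known response of cells to enzymatic dissociation of tissue. Jund is present in most resting cells, Fosl2 is a later Fos family member, Atf3 is a stress-induced factor of the ATF/CREB family that often represses its targets, and Maff is a small Maf protein, which has no transactivation domain and pairs with itself or with Nrf2 and related factors.

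The 8 genes have 10 RefSeq start sites in the table used here (build GRCm38.p6), 1 for each gene except Maff, which has 3. Because Jun and Atf3 proteins bind cAMP- and AP-1-like elements, and several of these promoters are known to carry them, the bases before each start were searched on both strands for TGACG, the core of the cAMP response element, and for TGACNTCA, which overlaps it where N is G. Either motif was present within 100 bases before 6 of the 10 starts, belonging to 5 genes, against 13.8% of the 32851 RefSeq windows in the genome. The full palindrome TGACGTCA was present in 1 of the 10, before the second Maff start, against 1.15% of all windows. The 6 stretches are shown because they hold these matches close to the start. Each is the 100 bases upstream, 5′ to 3′ on the strand of the gene, with the matches in capitals. They lie at chr7:19310046-19310145 (minus strand, Fosb), chr12:85473790-85473889 (plus, Fos), chr4:95052223-95052322 (minus, Jun), chr1:191183334-191183433 (minus, Atf3), chr15:79347420-79347519 (plus, second Maff start) and chr15:79348302-79348401 (plus, last Maff start).
Fosb: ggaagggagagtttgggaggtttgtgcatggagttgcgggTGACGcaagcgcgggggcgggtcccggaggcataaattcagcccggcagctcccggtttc
Fos: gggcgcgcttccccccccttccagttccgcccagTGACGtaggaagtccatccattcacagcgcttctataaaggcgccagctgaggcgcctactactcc
Jun: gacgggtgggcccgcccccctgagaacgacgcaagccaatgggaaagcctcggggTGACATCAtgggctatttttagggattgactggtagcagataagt
Atf3: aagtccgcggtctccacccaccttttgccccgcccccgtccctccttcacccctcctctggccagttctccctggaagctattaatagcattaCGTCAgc
Maff, second start: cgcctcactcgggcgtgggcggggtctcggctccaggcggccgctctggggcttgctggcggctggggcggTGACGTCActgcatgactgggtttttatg
Maff, last start: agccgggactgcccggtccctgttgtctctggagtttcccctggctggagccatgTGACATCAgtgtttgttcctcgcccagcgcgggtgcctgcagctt
In the GENCODE M21 annotation the Fos stretch overlapped no transcript and the Jun stretch only the antisense transcript Junos. The last 6 bases of the Fosb stretch and 7 of the Atf3 stretch lay in an exon of a transcript of the same gene that starts farther upstream, and both Maff stretches lay in an intron of a longer Maff transcript.

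The matches lay between 66 and 3 bases before the start. The match of Fosb covered bases 60 to 56 before its start, that of Fos bases 66 to 62, and those of Jun and of the last Maff start bases 45 to 38. The palindrome of the second Maff start covered bases 29 to 22, and the Atf3 match, read on the opposite strand as CGTCA, bases 7 to 3. Fos also held the TATA sequence TATAAA at bases 33 to 28, which was present within 250 bases before 7.59% of all starts. The AP-1 motif TGANTCA was found within 250 bases before 0 of the 10 starts (6.75% of all windows), and the CArG box, the site of serum response factor, before 0 of 10 (1.47%). Bases farther upstream were not searched, so sites there are not excluded. The Jund start lies 1210 bases before the GENCODE start of that gene, and all 100 bases before the Fosl2 start lie in a Fosl2 exon. Junb held a TGACG at bases 106 to 102 before its start. A match is a description of the letters in the window, and no binding was measured in these samples.

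Total counts over listed genes ran from 559688 to 1966963 in the NK libraries and from 1318067 to 2230475 in the sCAF libraries, and 3 counts corresponded to between 1.54 and 4.62 CPM (counts of a gene in 1000000 counts of the scaled library total) of an NK library. NK libraries listed 11 of 12 NK markers, with a summed level of 28078 to 31627 CPM in spleens and of 21761 to 26708 CPM in tumours. In the sCAF libraries the 10 fibroblast markers summed to 459 to 1217 CPM, from Col1a2 (mean 320.8), Col3a1 (196.6) and Pdgfrb (102.9) down to Acta2 (3.31), Pdpn (2.06), Fap (1.16) and Lum (1.05). The 7 epithelial or carcinoma markers summed to 3257 to 4106 CPM, from Krt18 (2515), Krt8 (760) and Cldn4 (206.6) down to Cdh1 (22.5), Epcam (19.3), Krt14 (18.9) and Krt5 (0). Keratin levels of this size go against a pure fibroblast population, and these libraries are called sCAF here only as the label. The spleen NK libraries also split across their groups on the second principal component (16.0% of the variance, computed without the listed genes). Healthy replicate 1 and tumour-bearing replicates 1 and 2 formed one side, called side A here, and the other 4 spleen libraries side B. The labels name no batch that matches this split.

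All 8 genes were higher in NK cells of the tumour than in NK cells of either spleen group. In edgeR's quasi-likelihood test with Benjamini-Hochberg adjustment, 8 of 8 were called higher than in tumour-bearing spleens, at an adjusted p under 0.05, where 15.8% of all genes tested were called higher. Against healthy spleens 8 of 8 were called higher too, where 16.5% of genes were. The lowest tumour library lay above the highest of all 7 spleen libraries for each of the 8 genes, as it did for 13.1% of genes. Their median log2 fold change was 2.99 against tumour-bearing spleens, where the median of all genes tested was 0.00140, and 3.99 against healthy spleens, where it was 0.0164. Because the genes were chosen with earlier results of these data known, these shares and medians describe them and are not independent support. Maff and Atf3 also passed the low-count filter only through the tumour libraries, where they are high, so their place in these counts was favoured in advance. The 8 genes together summed to 508 to 760 CPM in healthy spleen libraries, 671 to 1192 in tumour-bearing spleen libraries and 4309 to 6165 in tumour libraries. In bulk libraries, more cells with a gene switched on and more RNA per cell cannot be told apart.

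**Figure D1:**
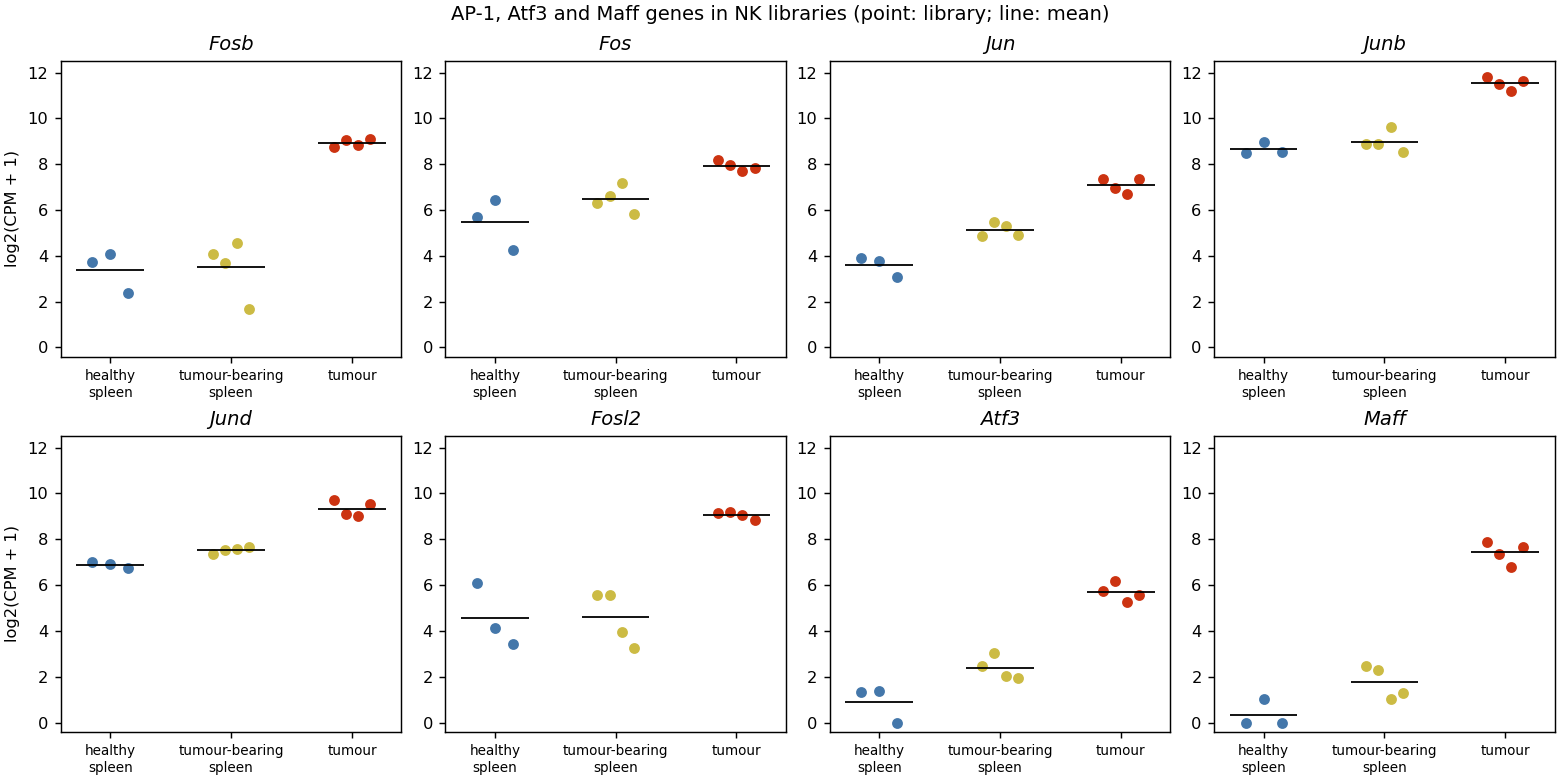
Levels of the 8 genes as log2(CPM + 1) (vertical axis) in the 3 healthy spleen, 4 tumour-bearing spleen and 4 tumour NK libraries; each point is a library and each line a group mean. In all 8 panels the 4 tumour points lie above the 7 spleen points, and the spleen points of Fosb and Fosl2 are far more spread than those of Jund.

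Among the Fos family, Fosb was at 12.3, 16.1 and 4.13 CPM in healthy spleen libraries 1 to 3 and at 16.0, 11.7, 22.6 and 2.17 CPM in tumour-bearing spleen libraries 1 to 4. In tumour libraries 1 to 4 it was at 424.6, 539.1, 459.4 and 544.8 CPM. The tumour libraries were close to each other, with the highest 1.28 times the lowest, while the tumour-bearing spleens spread 10.4-fold because replicate 4 was low. Against tumour-bearing spleens this gave a log2 fold change of 5.17 ± 0.40 (SE; edgeR adjusted p = 3.39e-06), and against healthy spleens one of 5.44 ± 0.48 (adjusted p = 1.01e-05).

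Fos, the founding Fos protein, had the smallest log2 fold change of the 8 in both comparisons. It was at 50.9, 84.5 and 18.2 CPM in healthy spleens, at 77.7, 97.1, 142.1 and 55.0 CPM in tumour-bearing spleens, and at 293.5, 249.2, 209.2 and 230.1 CPM in tumours. The lowest tumour library was only 1.47 times the highest tumour-bearing spleen library, replicate 3. Against tumour-bearing spleens the log2 fold change was 1.38 ± 0.38 (edgeR adjusted p = 0.0231), and against healthy spleens 2.21 ± 0.46 (adjusted p = 0.00521). The first of these calls was lost in edgeR without tumour-bearing spleen replicate 1 (adjusted p = 0.0568), 2 (0.0527) or 4 (0.0512), without tumour replicate 1 (0.0579), and against side B of the tumour-bearing spleens alone (0.117). Its log2 fold change stayed between 1.196 and 1.66 over all 17 alternatives.

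Fosl2, which encodes Fra-2, was at 66.3, 16.6 and 9.90 CPM in healthy spleens, at 46.5, 46.3, 14.4 and 8.68 CPM in tumour-bearing spleens, and at 564.0, 582.5, 528.5 and 458.3 CPM in tumours. The spleen levels followed the split of the libraries: the 3 libraries of side A were the 3 highest in both spleen groups together. The log2 fold change was 4.204 ± 0.58 (edgeR adjusted p = 0.000644) against tumour-bearing spleens. It was 3.52 against the side A libraries of that group and 5.44 against those of side B. Against healthy spleens it was 4.36 ± 0.69 (adjusted p = 0.00142), and 3.02 (adjusted p = 0.0583, no longer called) against healthy replicate 1 alone, the only healthy library of side A, which is then assumed to vary like the other groups.

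Of the Jun family, Jun, the classical partner of Fos, was at 13.9, 12.8 and 7.43 CPM in healthy spleens, at 28.2, 44.1, 38.1 and 28.9 CPM in tumour-bearing spleens, and at 164.8, 123.2, 102.2 and 164.5 CPM in tumours. It was the one member for which the 3 groups formed 3 steps that did not overlap and were all called. The log2 fold change was 1.97 ± 0.20 (edgeR adjusted p = 2.49e-07) against tumour-bearing spleens and 3.61 ± 0.27 (adjusted p = 5.80e-09) against healthy spleens.

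Junb, which can take the place of Jun in the dimer with different activity, was at 357.5, 507.2 and 364.0 CPM in healthy spleens, 465.0, 473.9, 779.3 and 371.0 CPM in tumour-bearing spleens and 3594, 2855, 2343 and 3141 CPM in tumours. The tumour libraries stood at least 3.01 times above any tumour-bearing spleen, and the spleen groups overlapped. The log2 fold change was 2.51 ± 0.22 (edgeR adjusted p = 7.39e-08) against tumour-bearing spleens and 2.86 ± 0.25 (adjusted p = 8.87e-08) against healthy spleens. Junb overlaps Prdx2 on the opposite strand, and whether counting used strand is not given in the sources used here. Prdx2 itself differed by a log2 fold change of 0.63 ± 0.18 between tumour and tumour-bearing spleen (adjusted p = 0.0138).

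Jund, the Jun protein of resting cells, was the least variable member within the spleen groups. It was at 126.4, 119.8 and 104.8 CPM in healthy spleens, 161.6, 184.8, 191.0 and 201.1 CPM in tumour-bearing spleens, and 838.6, 544.9, 520.7 and 737.8 CPM in tumours. As for Jun, the 3 groups did not overlap. The log2 fold change was 1.84 ± 0.16 (edgeR adjusted p = 3.54e-08) against tumour-bearing spleens and 2.50 ± 0.18 (adjusted p = 5.23e-09) against healthy spleens.

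Atf3 and Maff were almost undetected in spleen NK cells. Atf3 had 1, 3 and 0 counts in healthy spleens and 6, 13, 6 and 4 counts in tumour-bearing spleens, or 4.57, 7.26, 3.09 and 2.89 CPM, against 53.3, 71.0, 37.3 and 46.6 CPM in tumours. Its log2 fold change against tumour-bearing spleens was 3.47 ± 0.32 (edgeR adjusted p = 9.47e-08), and the lowest tumour library was 5.14 times the highest of those spleens. Against healthy spleens, where 4 counts were found in all, the ratio of pooled levels was 45.4, with a 95% interval of 17.7 to 166 for the counting error of the healthy counts alone (edgeR adjusted p = 7.27e-08).

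Maff had the largest fold change of the 8 against tumour-bearing spleens. It had 0, 2 and 0 counts in healthy spleens, 6, 7, 2 and 2 counts in tumour-bearing spleens, or 4.57, 3.91, 1.03 and 1.45 CPM, and stood at 232.8, 165.2, 108.8 and 203.5 CPM in tumours. The log2 fold change against tumour-bearing spleens was 6.01 ± 0.35 (edgeR adjusted p = 3.39e-09), rank 7 of the 8471 genes tested. With so few spleen counts, Maff and Atf3 passed the low-count filter only through the tumour libraries, where they are high. Their calls and p-values against spleens are therefore not independent support for a rise. Against healthy spleens the ratio of pooled levels of Maff was 320, with a counting interval of 88.5 to 2640 (edgeR adjusted p = 1.29e-08). With Maff and Atf3 set to the low ends of these intervals, the median log2 fold change of the 8 genes against healthy spleens was 3.88.

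**Figure D2:**
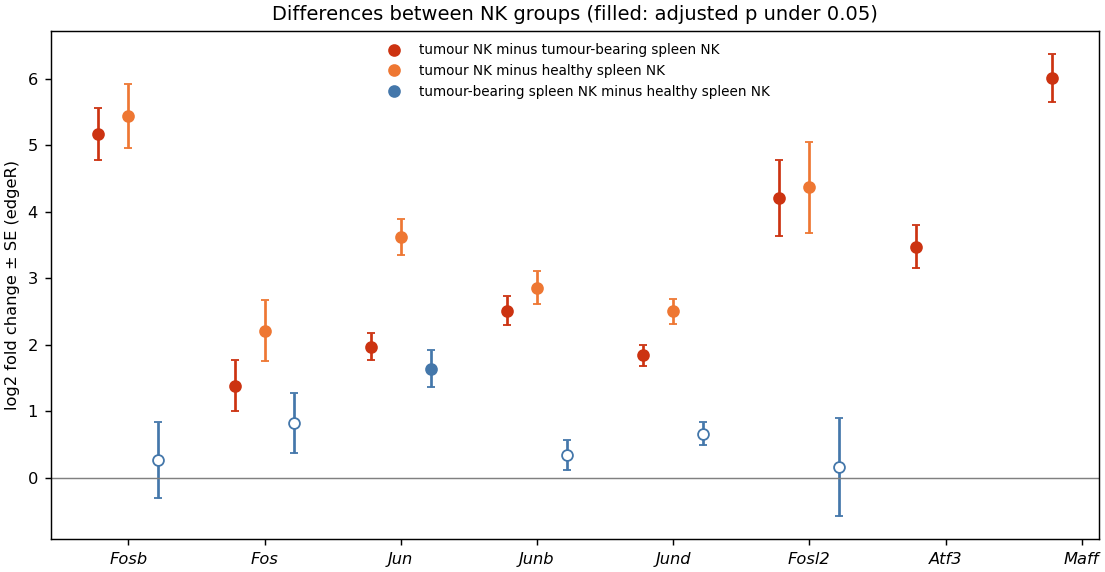
Log2 fold change with its standard error from edgeR (vertical axis) for the 8 genes in the 3 comparisons of NK groups; filled points have an adjusted p under 0.05. Atf3 and Maff are left out of both comparisons with healthy spleens, where they had 4 and 2 counts; between the spleens Jun alone is filled, at 1.64.

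Between the spleen groups, 1 of the 8 genes was called. Jun was higher in tumour-bearing than in healthy spleens by a log2 fold change of 1.64 ± 0.28 (edgeR adjusted p = 0.00337), where 1.23% of genes were called higher. The call held in all 15 alternatives tried for it, with adjusted p from 6.17e-05 to 0.0346. The spleen levels also did not overlap for Jund and Atf3, so that this held for 3 of 8 genes, against 6.52% of all genes. For Atf3 the gap was near the counting limit, with 4 counts (2.89 CPM) in tumour-bearing replicate 4 and 3 counts (1.61 CPM) in healthy replicate 2. Atf3 also passed the low-count filter only through the tumour libraries, so its place in this count is not support for a difference between spleens. Jund differed by 0.66 ± 0.18 (edgeR adjusted p = 0.0699). It was called with DESeq2 (0.0410), when only the spleen libraries were fitted (0.0371) and with the side of the split as a block (0.000195). Atf3 had 29 counts in 4 tumour-bearing spleens against 4 counts in 3 healthy ones, a ratio of pooled levels of 4.21 with a counting interval of 1.64 to 15.4 (edgeR adjusted p = 0.177). For the other 5 genes the libraries of both spleens overlapped. Fos differed by 0.83 ± 0.45 (edgeR adjusted p = 0.571), Junb by 0.35 ± 0.23 (0.638), Fosb by 0.27 ± 0.57 (0.933) and Fosl2 by 0.16 ± 0.73 (0.978). These standard errors leave room for changes in either direction for each of these genes, most of all for Fosb and Fosl2. Maff had 17 counts in tumour-bearing against 2 in healthy spleens, a ratio of pooled levels of 4.93 with a counting interval of 1.37 to 40.7 (edgeR adjusted p = 0.460). The fitted log2 fold change was above 0 for 8 of 8 genes, where the median of all genes tested was −0.00415. The share of all genes above 0 is not given, so this count is a description only. Fosl2 turned negative in 6 of 15 alternatives and Fosb in 2 of 15. The 3 comparisons share libraries, so their values are not independent of each other.

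The members did not all change by the same factor. The log2 ratio of each gene's count to that of Jund, with 1 added to both, does not depend on how libraries are scaled. With few spleen counts, as for Maff (2 to 7) and Atf3 (4 to 13), the size of this ratio does depend on depth and on the 1 added. An exact two-sided permutation test compared this ratio between 4 tumour and 4 tumour-bearing spleen libraries. The smallest p it can give is 0.0286, and p-values were adjusted over the 7 ratios. Maff, Fosb, Fosl2, Atf3 and Junb rose more than Jund, each with p = 0.0286 and adjusted p = 0.0400 in this exact test and with no overlap between the groups. For Maff the log2 ratio was −4.93, −5.38, −6.95 and −6.54 in the spleens and −1.85, −1.71, −2.25 and −1.85 in the tumours, a difference of 4.03 ± 0.49 (SE). The difference was 3.69 ± 0.73 for Fosb, 2.68 ± 0.68 for Fosl2, 1.60 ± 0.39 for Atf3 and 0.74 ± 0.25 for Junb.

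Jun and Fos were not shown to differ from Jund in this way. For Jun the log2 ratio was −2.49, −2.05, −2.31 and −2.77 in the spleens and −2.34, −2.13, −2.34 and −2.16 in the tumours. The values overlapped, and the difference was 0.16 ± 0.16 (exact p = 0.371, adjusted 0.371). For Fos it was −1.05, −0.92, −0.43 and −1.86 in the spleens and −1.51, −1.12, −1.31 and −1.68 in the tumours, a difference of −0.34 ± 0.32 (exact p = 0.314, adjusted 0.367). With Junb in place of Jund as the reference, the ratio of Fos was lower in tumours by a difference of −1.08 ± 0.12 (exact adjusted p = 0.0400), and that of Atf3 differed by 0.87 ± 0.43 (exact adjusted p = 0.114), short of the threshold.

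**Figure D3:**
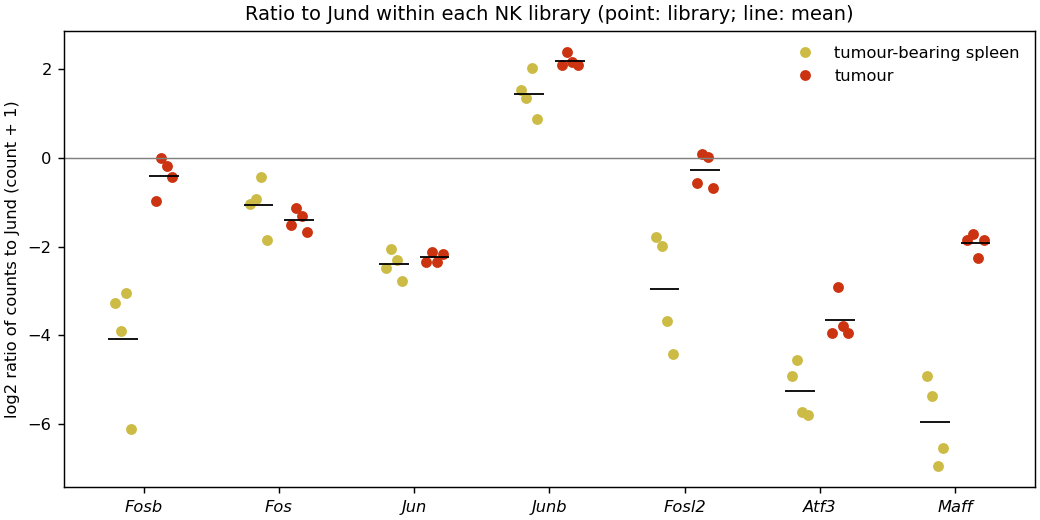
Log2 ratio of each gene's count to the Jund count of the same library (vertical axis, 1 added to both) in 4 tumour-bearing spleen and 4 tumour NK libraries; each point is a library and each line a mean. The groups are apart for Maff, Fosb, Fosl2, Atf3 and Junb and overlap for Jun and Fos.

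Within groups, single libraries were highest or lowest for several members. Healthy replicate 2 was the highest of its group for 5 of the 8 genes, where it was for 28.3% of all genes, and healthy replicate 3 was the lowest for 6 (29.6%). Among tumour-bearing spleens replicate 3 was highest for Fosb, Fos and Junb, and replicate 4 lowest for 5 genes (28.7%). Among tumours replicate 1 was highest for 5 (24.6%) and replicate 3 lowest for 6 (26.5%). These counts describe single libraries, and members are not independent of each other.

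Each member was also set beside the non-member genes with the most similar profile, taken as the smallest root mean square distance in log2 CPM over the 11 NK libraries after each gene was centred on its mean. Jund lay closest to Tob2 (0.16), an antiproliferative gene of the Tob/BTG family, then to Tiam2 and Ppp1r16b. Junb lay closest to Dusp5 (0.22), a phosphatase of ERK, then to Cebpb and Ppp1r15a. Jun lay closest to Bcl2a1b (0.26), an antiapoptotic Bcl-2 family gene with near-identical copies, then to Tex2 and Tnfrsf9, and Fosl2 to Crem (0.32), then Tnfaip3 and Icos. Atf3 was nearest to Rgs1 (0.38), then Vps37b and Rnf19b, and Fos to Acsl3 (0.41), then Usp18 and Siah2. Fosb and Maff had no neighbour as close: Ier5l stood at 0.59 from Fosb, followed by Osgin1 and Gzmd, and Ifitm1 at 0.70 from Maff, followed by Ctla4 and Gzmc. The distance is not scaled to a gene's own root mean square spread, which was largest for Maff (2.93) and Fosb (2.70). That spread was 1.05 for Jund and 1.14 for Fos, so distances of different members are not on a like footing. Among members, Junb and Jund were nearest to each other (0.43), as were Fosb and Maff (0.89). The nearest member was Jund for Jun (0.47) and for Fos (0.56), Jun for Atf3 (0.64) and Atf3 for Fosl2 (0.85).

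Other AP-1 and bZIP genes moved in part with the members. They were listed as AP-1 or bZIP genes, and whether each can pair with the member proteins was not tested. Of 23 other AP-1 and bZIP genes tested, 10 were called higher and 2 lower in tumour than in tumour-bearing spleen NK cells, with a median log2 fold change of 0.56. Of all genes tested, 13.2% were called lower in this comparison, beside the 15.8% called higher. Crem, a cAMP-responsive factor, rose most (4.42 ± 0.46, edgeR adjusted p = 6.79e-05), followed by Cebpb (2.64 ± 0.19), a factor of inflammatory genes, and by the small Maf gene Mafg (2.21 ± 0.21). The remaining small Maf gene, Mafk, rose by 1.85 ± 0.21. Dbp, a clock output factor, fell by 0.87 on the log2 scale, and Atf7 fell by 0.49. Batf, a lymphocyte AP-1 partner, was not called (0.15 ± 0.14, adjusted p = 0.42).

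Of 23 kinases and serum response factors that act upstream of AP-1 genes, 5 were called higher and 2 lower, with a median of 0.25. Map3k8, a kinase upstream of ERK, rose by 1.85 ± 0.28, Map2k3, a kinase of p38, by 1.47 ± 0.14, and Mknk2, a kinase activated by ERK and p38, by 1.196 ± 0.13. Srf, the serum response factor, fell by 0.50 and Rps6ka1, a kinase downstream of ERK, fell by 0.53, and neither was called against healthy spleens (−0.41 ± 0.19, adjusted p = 0.117, and −0.38 ± 0.15, adjusted p = 0.0615). Of 13 feedback phosphatases and mRNA decay factors, which limit the output of this pathway, 12 were called higher and 0 lower, with a median of 1.82. The largest were Btg1 (2.78 ± 0.26), Dusp1 (2.41 ± 0.25), which inactivates p38 and JNK, and Dusp5 (2.26 ± 0.18), and Zfp36, whose protein destabilises mRNAs, rose by 1.12 ± 0.16.

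Of 25 other immediate early genes, 19 were called higher and 2 lower, with a median of 1.18. The orphan nuclear receptor gene Nr4a3 rose by 3.96 ± 0.30, the stress gene Gadd45b by 3.85 ± 0.17 and Klf4 by 3.69 ± 0.34. Egr3 fell by 1.37, and Klf2, a factor of lymphocyte quiescence and homing, fell by 1.16. Against healthy spleens Klf2 fell by 1.53, and Egr3, itself higher in tumour-bearing than in healthy spleens, differed by 1.31 ± 0.56 (adjusted p = 0.0855).

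Of 13 heat shock genes 3 were called higher and 3 lower than in tumour-bearing spleens, with a median of 0.13, whereas 7 were called higher and 1 lower than in healthy spleens, with a median of 0.63. Of all 8471 genes tested, 1399 were called higher and 1183 lower than in healthy spleens. Hspa1b, the inducible Hsp70 gene, rose by 3.26 ± 0.64, and its near-identical copy Hspa1a, whose reads can be mixed with it, by 4.401 ± 0.53. In tumour-bearing spleens they had means of only 7.75 and 2.75 counts a library, so the size of these folds is uncertain. Dnajb6, a co-chaperone gene, rose by 0.76 ± 0.15. Hsph1 fell by 1.19, Hspa4 fell by 1.14 and Hsf1, the heat shock transcription factor, fell by 0.60. Against healthy spleens Hsf1 fell by 0.73, while Hsph1 (0.18 ± 0.19, adjusted p = 0.519) and Hspa4 (−0.90 ± 0.45, adjusted p = 0.148) were not called. Whether warm digestion had a part in these levels was not tested.

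Genes that AP-1 factors are known to regulate were read beside them without a claim of regulation. Of 18 AP-1 responsive genes of lymphocytes, 14 were called higher and 2 lower, with a median of 1.56. Ctla4, an inhibitory receptor, rose by 5.72 ± 0.57, Vegfa, a growth factor of vessels, by 4.48 ± 0.29 and Icos, a costimulatory receptor, by 4.42 ± 0.37. In tumour-bearing spleens Ctla4 had a mean of only 3 counts a library (2.07 CPM), near the counting limit, so the size of its fold is uncertain. The chemokine gene Ccl3 fell by 1.29 and the cyclin gene Ccnd2 fell by 0.44. Both were higher in tumour-bearing than in healthy spleens. Against healthy spleens 16 of the 18 genes were called higher and 0 lower, where 1183 of all 8471 genes tested were called lower. In that comparison Ccl3 was at −0.05 ± 0.16 (adjusted p = 0.842) and Ccnd2 at 0.30 ± 0.15 (adjusted p = 0.147). Of 14 small Maf and Nrf2 target genes, 6 were higher and 0 lower, with a median of 0.43. Osgin1, an oxidative stress gene, rose by 6.50 ± 0.46, the autophagy receptor gene Sqstm1 by 1.98 ± 0.16 and the thioredoxin reductase gene Txnrd1 by 1.12 ± 0.18. The same limit holds for Osgin1, with a mean of 4.25 counts (2.65 CPM) in tumour-bearing spleens. Of 14 genes of the integrated stress response, in which Atf3 is a known late target, 8 were higher and 0 lower, with a median of 0.82. The amino acid transporter genes Slc7a5 and Slc3a2 rose by 2.27 ± 0.32 and 1.84 ± 0.13, and the kinase gene Eif2ak2 rose by 1.45 ± 0.22. These values are edgeR log2 fold changes, and those named as risen or fallen had adjusted p under 0.05 over all genes tested.

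**Figure D4:**
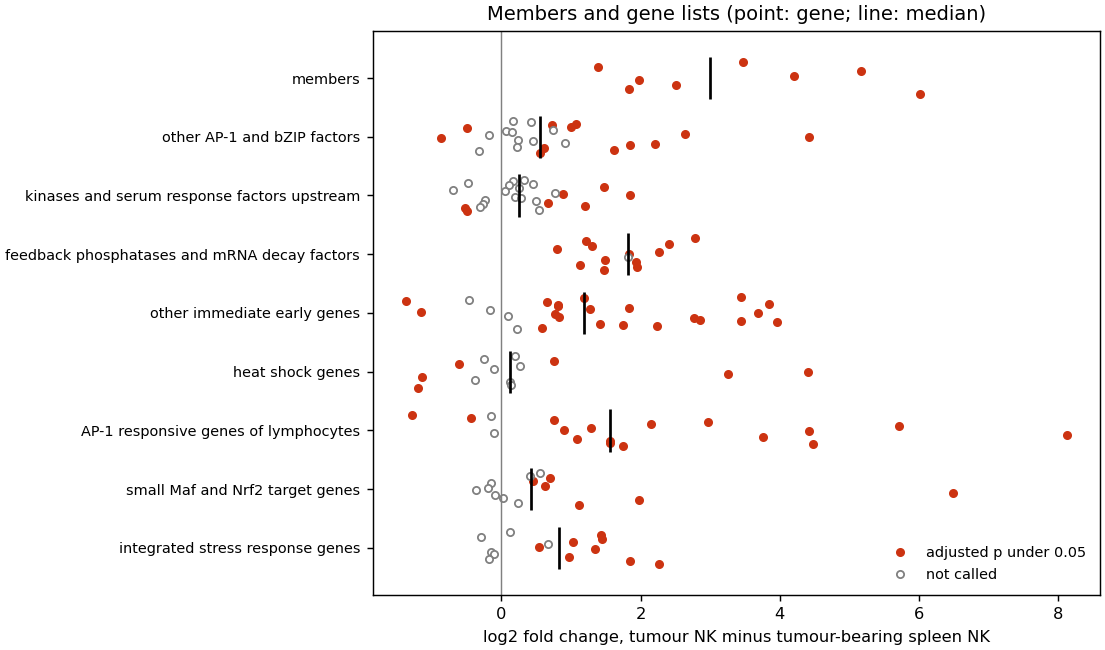
Log2 fold change of tumour against tumour-bearing spleen NK cells (horizontal axis) for the 8 genes, in the top row as members, and for the tested genes of 8 other lists; each point is a gene, filled where the adjusted p is under 0.05, and each line is a list median. The 8 genes have the rightmost median (2.99), and the upstream kinases (0.25) and heat shock genes (0.13) lie nearest to 0. The 8 genes and the lists were chosen with earlier results of these data known.

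Between the spleens fewer genes of most lists were called. Among immediate early genes 4 of 25 were called higher in tumour-bearing than in healthy spleens, namely Egr1, Egr2, Egr3 and Plk3, and 0 lower, where 0.354% of all genes were called lower. Egr1, an early growth response factor that the same signals induce as Fos, rose by a log2 fold change of 1.97 ± 0.28 (edgeR adjusted p = 0.00100). Of 13 heat shock genes 3 were higher (Hsp90ab1, Hspe1 and Hsph1), as many as between tumour and tumour-bearing spleen, and 8 of 18 AP-1 responsive genes were higher, among them Ifng, Ccl4 and Tnfrsf9. The phosphatase gene Dusp2 (0.99 ± 0.16) was the only one called of 13 feedback genes and Psat1 (1.19 ± 0.21) the only one of 14 integrated stress response genes, both higher. Of the 23 other bZIP genes, the 23 upstream genes and the 14 small Maf and Nrf2 target genes, 0 were called by edgeR or by DESeq2, and 6 bZIP genes and 0 of the others had an unadjusted p under 0.05 in edgeR.

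Marker levels moved with the tumour libraries. Of the NK markers, Ncr1, which encodes NKp46, was lower in tumour than in tumour-bearing spleen NK cells by edgeR (log2 fold change −0.69, adjusted p = 0.00486), as were Klrb1c (−0.68), Nkg7 (−0.59), Prf1 (−0.85) and Tbx21 (−0.50), Gzmb was higher (0.91), and the other 5 were not called. The 4 listed neutrophil markers summed to 60.8 to 158 CPM in tumour NK libraries and to 1.45 to 11.2 CPM in the spleens, with S100a8 at 25.1 and S100a9 at 56.9 CPM in tumours, while 7 listed macrophage or monocyte markers summed to 570 to 1180 CPM, of which Ccr2, also made by NK cells, held 817. The others had tumour means of 14.3 (Lyz2, from 4.10 to 40.3), 11.3 (Cd14), 7.69 (C1qa), 6.42 (C1qb), 4.31 (C1qc) and 2.17 CPM (Csf1r). Their means in either spleen group were at most 1.96 CPM, and Csf1r was at 0 in all spleen libraries. The 2 listed epithelial or carcinoma markers summed to 27.7 to 54.9 CPM in tumours, nearly all Cdh1, against 0 to 3.08 in spleens, and Krt8 and Krt18 have no value in the NK libraries. Pecam1, the gene of CD31 and the only listed endothelial marker, was at 168.6 CPM in tumours and 84.6 CPM in tumour-bearing spleens. Its log2 fold change was 0.995 (edgeR adjusted p = 0.000191), although the sort kept cells without CD31. Of 2 listed dendritic cell markers, Zbtb46 was higher (1.76, adjusted p = 0.00058) and Itgax lower (−0.44, adjusted p = 0.0213). The sort gates on CD14, EPCAM and GFP were set against monocytes and carcinoma cells. Neutrophils, macrophages or monocytes and carcinoma cells can carry AP-1 RNA as well. The part of such cells, or of the lower NK markers, in the levels of the 8 genes was not tested.

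The sCAF libraries came from tumours digested in the same way, and the 2 count tables were prepared apart, so levels were set side by side as CPM over the 9215 genes that both list, with no test. Of the 8 genes, 5 were higher in every sCAF library than in every tumour NK library, 1 was lower and 2 overlapped, where 31.3% of shared genes were higher and 32.1% lower. The 8 genes held 1.35% to 1.44% of the shared counts in sCAF libraries and 0.415% to 0.608% in tumour NK libraries.

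Atf3 differed most. It was at 2275, 2197 and 2372 CPM in sCAF libraries 1 to 3 and at 35.9 to 73.2 CPM in the 4 tumour NK libraries, 44.1 times higher by the means. Jun was at 2179, 2243 and 1702 CPM against 98.5 to 162 CPM, 14.9 times higher, and Fos at 2347, 2485 and 3186 CPM against 202 to 289 CPM, 11.01 times higher. These 3 genes ranked between percentiles 99.16 and 99.65 of the shared genes in the sCAF libraries, and in tumour NK libraries at percentiles 55.3 to 71.3 for Atf3, 80.1 to 87.8 for Jun and 90.7 to 94.0 for Fos. Fosb was at 1482, 1554 and 2842 CPM against 419 to 556 CPM, and Jund at 1830, 2042 and 1847 CPM against 502 to 827 CPM. They were 4.03 and 2.93 times higher, and sCAF replicate 3 was the high library for Fosb and Fos but the low one for Jun and Junb.

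Fosl2 ran the other way. It was at 58.1, 30.5 and 62.7 CPM in sCAF libraries and 445 to 600 CPM in tumour NK libraries, so that the lowest NK library was 7.10 times the highest sCAF library. Junb overlapped, at 4022, 2832 and 2195 CPM in sCAF and 2257 to 3543 CPM in tumour NK libraries, and so did Maff, at 155, 151 and 169 CPM against 105 to 229 CPM. Among the factors beside them, Crem was at 6.59 to 11.1 CPM in sCAF libraries and 366 to 548 CPM in tumour NK libraries, and Nr4a3 at 19.8 to 51.2 against 780 to 1041 CPM. Egr1 was at 910 to 1560 CPM in sCAF libraries and 137 to 240 CPM in tumour NK libraries. Of 27 other immediate early genes in both tables, 17 were higher and 6 lower in every sCAF library than in every tumour NK library. The tissue and its digestion are shared here, while cell type and table differ together and cannot be told apart, and sCAFs have no undigested group.

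**Figure D5:**
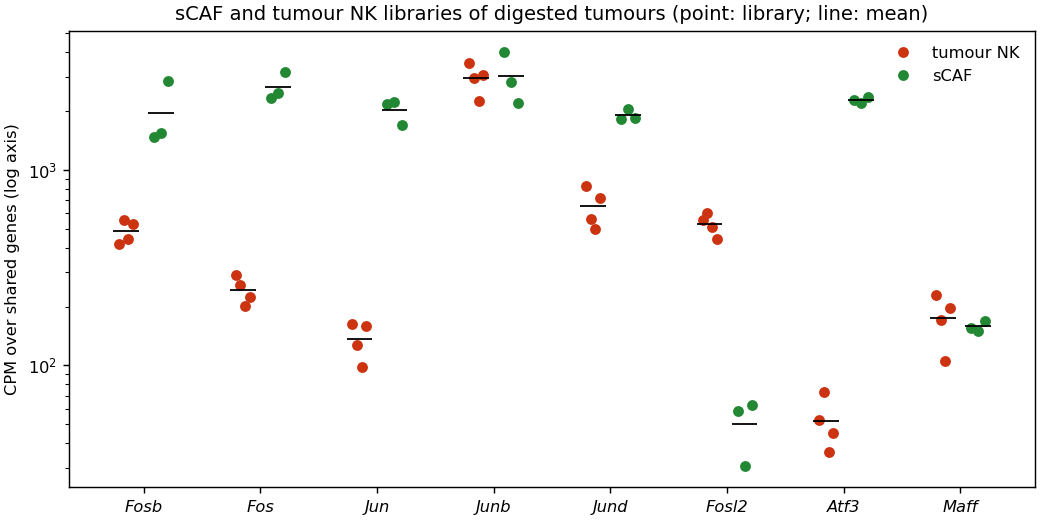
CPM over the genes shared by both tables (vertical log axis) for the 8 genes in 4 tumour NK and 3 sCAF libraries; each point is a library and each line a mean. The sCAF points lie above the tumour NK points for Fosb, Fos, Jun, Jund and Atf3, below them for Fosl2, and among them for Junb and Maff.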

How the data were processed

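The authors deposited raw counts per gene symbol in 2 tables: 1 of 11 NK libraries and 1 of 3 sCAF libraries. Per the submitters' processing notes, bcl2fastq, STAR 2.4.2a and HTSeq were used with build mm10. Use of strand or of molecular identifiers is not given in the sources used here. The highest count of any listed NK gene was 6 or more, so low genes are missing from that table. In each header a pair of column names was not parted by a tab, and values were assigned by position. Depth sets the precision: 3 counts, the limit of a count of 0, were 1.54 to 4.62 CPM in NK libraries and 1.45 to 2.48 CPM in sCAF libraries. Intervals are exact 95% Poisson intervals and cover counting error only.

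NK counts were filtered with filterByExpr, scaled by TMM and fitted over all 11 libraries with edgeR 4.0.16 (quasi-likelihood, robust, group as the only term) in R 4.3.3. The threshold was an adjusted p (Benjamini-Hochberg, 8471 genes) of 0.05. CPM use TMM effective library sizes, except beside sCAF libraries, where totals over the 9215 shared genes were used. Alternatives were RLE and upper-quartile scaling, DESeq2 1.42.0, no low-count filter, only the groups compared, a replicate block, each side of the spleen split, and leaving out each library. Scripts were tested on simulated data. Other tools were Python 3.11.15, pandas 2.3.3 and scipy 1.17.1. Promoters came from RefSeq (GRCm38.p6), and all 8 genes were matched by symbol. The lists, written from general knowledge, and the 8 genes were chosen with earlier results of these data known. In each list up to 3 genes called higher and 3 called lower in tumour than in tumour-bearing spleen were named by size of log2 fold change, given a mean of at least 3 counts in the lower group; Mafk, Batf, Zfp36, Hspa1a, Egr1 and the list genes named between the spleens or beside sCAF libraries were chosen after their values were seen.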

Additional observations from a re-analysis of the deposited data

How the results depend on the processing

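Against tumour-bearing spleens 131 of 136 alternative values of the 8 genes kept direction and call, against healthy spleens 127 of 128, and between the spleens 105 of 116. The changed calls, for Fos, Fosl2 and Jund, stand with their results above. Between the spleens 8 values turned negative, none of them called: Fosb was −0.13 without healthy replicate 3 and −0.17 without tumour-bearing replicate 3, and ranged from −0.17 to 0.91 with 1 library left out. Fosl2 was −0.076 by DESeq2 and −0.38 with the split as a block, and ranged from −0.28 to 1.07 with 1 library left out, negative without healthy replicate 2 or 3 or tumour-bearing replicate 1 or 2. Upper-quartile scaling changed the split of all calls from 1338 higher and 1115 lower to 1091 and 1530 (tumour against tumour-bearing spleen) and from 1399 and 1183 to 1154 and 1569 (against healthy spleen), with the median of all genes shifted by −0.10; the 8 genes stayed called. With side A spleens alone, 546 genes were lower than in tumour-bearing spleens, and 761 higher and 338 lower than in healthy ones, with fewer libraries in the fit. Leaving out 1 library gave 782 (healthy replicate 2) to 1406 (healthy replicate 1) lower against healthy spleens. Between the spleens, 104 higher and 30 lower became 443 and 248 with the side of the split as a block, 35 and 7 without healthy replicate 2, 59 and 8 without healthy replicate 3 and 100 and 25 without healthy replicate 1, and the lower count was 18 and 16 without tumour-bearing replicates 1 and 4. In that comparison 2 of the 8 genes were called by DESeq2, when only those groups were fitted, and with the split as a block.

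Same-numbered libraries correlated with r from −0.05 to 0.29 between tumour and tumour-bearing spleen. Between tumour and healthy spleen r was −0.19 to 0.04, and between the spleens −0.35 to 0.50. In the first comparison, numbers 1 to 4 had r of −0.05, 0.29, 0.00249 and 0.21, and the highest r of unlike numbers was 0.16. With 3 or 4 libraries in a group, these values cannot settle whether same-numbered tumour and spleen libraries came from the same mouse. With the replicate block, calls were 1451 higher and 1175 lower, 1261 and 1015, and 61 and 15; without the block on the same libraries the last pair was 61 and 13, an alternative chosen after seeing the data. The block changed the call of 0 of the 8 genes.

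Leaving out 1 library, the difference in the log2 ratio to Jund was 3.01 to 4.04 for Fosb, 0.55 to 0.93 for Junb, 2.20 to 3.08 for Fosl2, 1.36 to 1.83 for Atf3 and 3.70 to 4.37 for Maff; 3 against 4 libraries cannot go below p = 0.0571 in an exact permutation test. With Junb as the reference, the difference was −1.08 for Fos and 0.87 for Atf3, and −0.58 ± 0.21 for Jun, of the opposite sign to that with Jund and called with neither. Over all listed sCAF genes, mean CPM was 1752 for Jund, 2096 for Atf3 and 145 for Maff. The cause of the other changes was not tested. Depth limits Atf3 and Maff in spleens most.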
